A study of Caenorhabditis elegans with 5 samples.

Results

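The genes described here are cebp-1, the genes rpm-1, dlk-1, mkk-4 and pmk-3 of the kinase pathway that acts on it, and cebp-2, which encodes a partner of CEBP-1. They were read in peak lists of ATTF-4 chromatin immunoprecipitation sequencing (ChIP-seq) from whole Caenorhabditis elegans larvae at the L4 stage. ChIP-seq recovers the DNA that a tagged protein is bound to, directly or through other proteins, and a peak is an interval of the genome where that DNA is in excess. The genes were chosen by name, with their peaks already known, so everything below is a description and carries no test. A peak was given to a gene when its summit, the position of highest signal within the peak, lay between 2000 bp upstream of the annotated 5' end and 1000 bp past the 3' end. By that rule the 6 genes, of 19985 protein-coding genes, held 15 of the 24897 peaks in the list that the authors made from all replicates pooled.

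All samples were of 1 strain, OP219 (unc-119(ed3) III; wgIs219), a transgenic line in which C05D10.1, the gene attf-4, carries a GFP-FLAG tag at its C-terminus. The larvae were of pooled sexes, and their age in hours is given as unknown. The 5 libraries belonged to 3 biological replicates, with 1 library in replicate 1 and 2 libraries each in replicates 2 and 3. There is no second group: the immunoprecipitation was set against a control only inside the authors' peak lists, and the libraries are those of a single integrated line, whose tagged protein is present beside the worm's own gene. Whole larvae hold every tissue, so a peak shows neither the cell type it comes from nor whether neurons, where this pathway is best known, contribute to it. Depth per library is unknown, since the lists carry no read counts.

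DLK-1 is a MAP kinase kinase kinase that activates the MAP kinase kinase MKK-4, which activates the p38-type MAP kinase PMK-3. RPM-1, a very large ubiquitin ligase of presynaptic terminals and axons, holds this cascade in check by promoting the degradation of DLK-1. The cascade acts in synapse formation, axon termination and the regrowth of cut axons, and one of its outputs in neurons is the mRNA of cebp-1, which it stabilises and which can be translated locally in the axon. CEBP-1 is a bZIP transcription factor of the C/EBP family, and CEBP-2 is another C/EBP-family protein and its binding partner.

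Of the 6 genes, cebp-1 was the one with a peak in the authors' final set, the 147 nuclear and 26 mitochondrial peaks they retained after comparing the replicates. Among all protein-coding genes 1.09% had a final-set peak in the window. That peak had its summit 692 bp upstream of cebp-1 and a signal of 46.1, which was 4.93 times the median signal of the pooled list and rank 48 of 24897. The other genes had weak entries or none: the strongest pooled signals were 8.36 at rpm-1, 13.1 at dlk-1, 11.5 at mkk-4 and 10.9 at pmk-3, and cebp-2 had no pooled peak. The signal is the authors' own value per peak, whose exact definition is not given in the sources used here.

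The DNA under the cebp-1 summit and, for contrast, under the strongest peak at mkk-4 is given here, since the finding at cebp-1 rests on this site. These are the 100 bases on each side of the summit, on the forward strand of ce11, from the RefSeq genome. The cebp-1 stretch is chrX:1454460-1454660 and lies between genes, upstream of cebp-1, which is read from the reverse strand. The mkk-4 stretch is chrX:10027476-10027676, also between genes, upstream of mkk-4, which is read from the forward strand. In the cebp-1 stretch the capitals mark, from left to right, a match to the C/EBP-type pattern TTNNGCAA on the reverse strand, a 9-base element on the reverse strand, a TGAGTCA and the same 9-base element, CTGCGTCTC, on the forward strand. No letters are in capitals in the mkk-4 stretch, which holds none of these patterns.
cebp-1: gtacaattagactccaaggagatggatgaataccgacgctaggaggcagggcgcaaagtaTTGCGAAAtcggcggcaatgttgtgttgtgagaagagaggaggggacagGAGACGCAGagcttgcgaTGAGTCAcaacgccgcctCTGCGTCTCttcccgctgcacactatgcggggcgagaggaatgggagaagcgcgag
mkk-4: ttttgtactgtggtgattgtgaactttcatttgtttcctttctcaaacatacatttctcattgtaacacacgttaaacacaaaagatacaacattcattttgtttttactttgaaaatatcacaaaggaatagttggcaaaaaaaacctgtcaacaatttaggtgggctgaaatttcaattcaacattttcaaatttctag

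The cebp-1 stretch was 43.3% A or T, and that at mkk-4 was 70.6% A or T. In G and C, the cebp-1 stretch had 56.7%, against a median of 45.8% over the 147 nuclear final-set peaks and 37.3% over all nuclear pooled peaks. The stretch at mkk-4 had 29.4% G and C, below both medians. The strongest dlk-1 peak, with a signal of 13.1, had 52.7%, above both, and also held CTGCGTCTC and TGAGTCA. A dlk-1 peak with a signal of 7.44 and no replicate match had 52.7% as well. A high share of G and C was thus not particular to the cebp-1 stretch. The pmk-3 summit lies in a UTR, and no sequence is shown for it or for the genes on chromosome I.

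The 2 copies of CTGCGTCTC in the cebp-1 stretch face each other, both on the right of the summit. The left copy starts 9 bp and the right copy 45 bp from the summit, on the side away from cebp-1. With their neighbouring bases they form an inverted repeat with arms of 11 bases, GAGACGCAGAG and CTCTGCGTCTC, separated by 23 bp, and the TGAGTCA, which starts 27 bp from the summit, falls in the space between the arms. The element, the TGAGTCA and the repeat were searched for after this sequence had been seen, so their presence at cebp-1 is no finding. Counting both strands of windows of this length around every summit, CTGCGTCTC occurred in 10.9% of the nuclear final-set peaks and 2.25% of the nuclear pooled peaks. At least 2 copies occurred in 1.36% of the final-set windows, which is 2 peaks with cebp-1 included, and in 0.177% of the pooled windows. TGAGTCA occurred in 2.72% of final-set and 2.27% of pooled windows. An inverted repeat of any sequence with arms of at least 11 bases occurred in 3.40% of final-set and 4.07% of pooled windows, and the arm sequence itself occurred in 5.44% of final-set and 0.700% of pooled windows.

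TTNNGCAA, which starts 40 bp from the summit on the cebp-1 side, occurred in 16.3% of final-set and 19.4% of pooled windows. It was thus no more common in the final set. It also occurred at the dlk-1 peaks 1758 bp into the gene and 909 bp upstream. Further matches lay at the mkk-4 peak in the 3' UTR and the rpm-1 peak 533 bp past the 3' end. GAGAGA, present in 40.8% of final-set and 15.6% of pooled windows, was not in the cebp-1 stretch. It was in the dlk-1 peak 1758 bp into the gene and in the mkk-4 peaks 1400 bp upstream and in the 3' UTR. CCTGCG, present in 13.6% of final-set and 2.63% of pooled windows, was in none of the 15 peaks of the 6 genes. Runs of AAAAAA or its complement, present in 43.5% of final-set and 55.7% of pooled windows, were not in the cebp-1 stretch and occurred 3 times, overlapping, at mkk-4. These matches are letters only and say nothing about which protein was bound.

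The cebp-1 gene (D1005.3, WBGene00016997) lies on the reverse strand of chrX:1452695-1453868 and is 1174 bp long, shorter than most: its length was at the 23.7th percentile of protein-coding genes. The final-set peak, chrX:1454400-1454719, lies upstream of it, and the next protein-coding gene on the far side, D1005.2, is 4462 bp from the summit. No non-coding gene was annotated within 1 kb of any peak of the 6 genes.

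Each replicate list held a summit within 100 bp of that at cebp-1. In replicate 1 the peak had a signal of 13.8 and rank 137 of 30000, in replicate 2 a signal of 13.6 and rank 48 of 22227, and in replicate 3 a signal of 22.9 and rank 76 of 30000. Since the lists have different scales, each signal was divided by the median of its list. This gave 3.55 in replicate 1, 4.42 in replicate 2 and 4.41 in replicate 3, or 4.13 ± 0.50 (SD, n = 3). The median of a list, like the percentile of a peak, also depends on how many weak entries the list holds. The replicate lists differ in length, so these values are not strictly on 1 scale. Replicates 2 and 3 lay close together and replicate 1 was lower, and all 3 placed the peak in the top 1% of the list, at percentiles 99.5 (replicate 1), 99.8 (replicate 2) and 99.7 (replicate 3). The −log10 q-value was 2.97 in replicate 1, 2.83 in replicate 2, 2.95 in replicate 3 and 2.69 in the pooled list, in each case the highest value that list holds. That highest value was shared by 462 entries in replicate 1, 342 in replicate 2, 445 in replicate 3 and 243 in the pooled list. The summits did not coincide to the base. Relative to the pooled summit, that of replicate 1 lay 33 bp and that of replicate 3 lay 70 bp away from cebp-1, and that of replicate 2 lay 45 bp towards it, so that the replicate summits spanned 115 bp. The 9-base elements lie within that span. Because the pooled list was made from the same alignments, a match between a replicate and the pooled list is no independent observation.

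**Figure D1:**
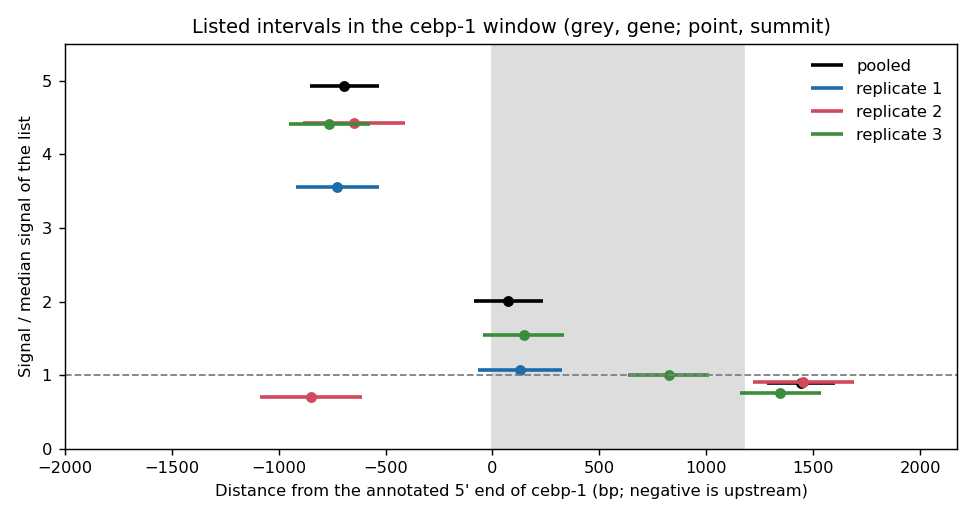
Listed intervals in the cebp-1 window, by distance from the annotated 5' end of cebp-1 (x axis, bp) and signal divided by the median of the list (y axis), for the pooled list and the 3 replicate lists. The upstream peak stands at 3.55 to 4.93 times the median in all 4 lists, and the other intervals stay near or below about 2 times.

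A summit within 100 bp in every replicate list was found for 87 final-set peaks, or 50.3% of that set, and for 2.60% of all pooled peaks. Of the 6 genes 1, cebp-1, had a strongest pooled peak that met this criterion, as did 3.55% of all protein-coding genes. Of the 78 nuclear final-set peaks that every replicate list holds, 13 ranked, in each of those lists, within as many places as the final set has peaks, and cebp-1, whose lowest replicate rank was 137, came 12th when the 78 were ordered by their lowest replicate rank. By pooled signal it was 24th of 147 nuclear final-set peaks, whose median was 35.1, and 11th of the 50 on the X chromosome, whose median was 37.2. It thus lay in the upper part of the nuclear final set without leading it. The ranks on either side of it in the pooled list went to a peak between genes on X (46.11, rank 47) and one between genes on chromosome I (45.89, rank 49). The lowest signal in the final set was 29.43 and the highest outside it 29.33, so that 46.1 was well inside the boundary.

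The cebp-1 window held 2 further pooled peaks. The first, 74 bp past the 5' end in a coding exon, had a signal of 18.8 and rank 981, and was matched in replicate 1 (4.16, rank 13012) and replicate 3 (8.06, rank 4269) but had no summit within 100 bp in replicate 2. It was among the stronger pooled entries and yet close to the list median in replicate 1. The second, 1443 bp from the 5' end and 270 bp past the 3' end, had a signal of 8.41 and rank 16390, and was matched in replicate 2 (2.80) and replicate 3 (3.97). It also falls in the window of the neighbouring gene W05H7.1.

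**Figure D2:**
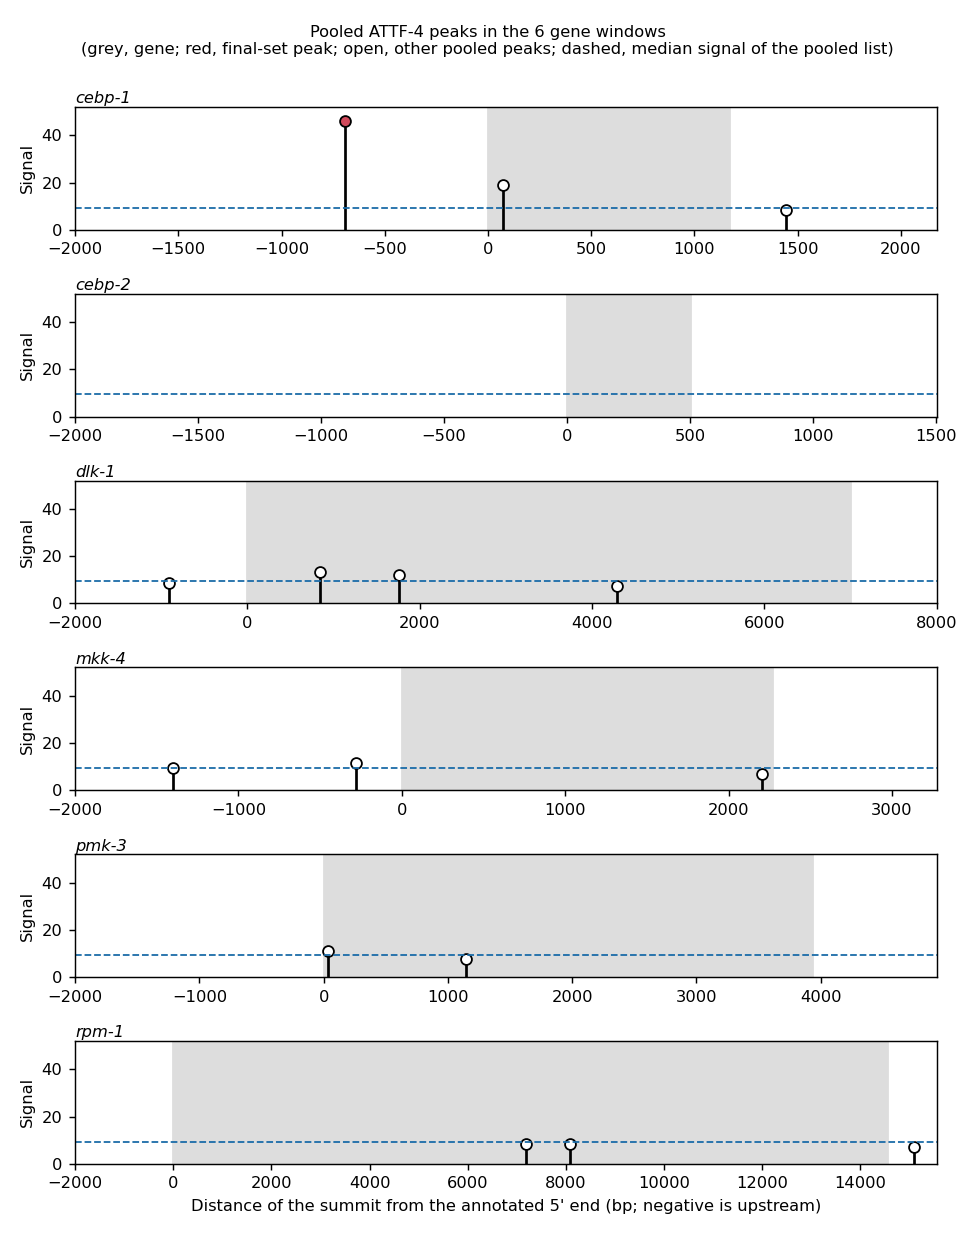
Signal of each pooled peak (y axis) by distance of its summit from the annotated 5' end (x axis, bp) in the windows of the 6 genes. Grey is the gene, the red point is the final-set peak, open points are other pooled peaks and the dashed line is the median signal of the pooled list. The peak upstream of cebp-1, at 46.1, stands apart, and the peaks of the other genes lie between 7.02 and 13.1.

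At rpm-1 (C01B7.6, WBGene00004457, reverse strand of chrV:8805399-8819955), which encodes the ubiquitin ligase that opposes DLK-1, the pooled list held 3 peaks in the longest of the 6 windows. The gene is 14557 bp long, longer than most (97.8th percentile). Its strongest peak, 8082 bp into the gene in a coding exon, had a signal of 8.36, below the list median of 9.35, and was matched in replicate 1 alone (6.71, 4 bp away). The second, 7192 bp into the gene, also in a coding exon, had 8.24 and was matched in replicate 3 alone (6.66). The last, 533 bp past the 3' end, had 7.31 and was matched in replicate 1 alone (4.10). Replicate 2 held no entry in the rpm-1 window, replicate 1 held 5 and replicate 3 held 1. The replicates did not share a position. No entry of any list lay at the 5' end, which falls in a stretch without summits of 105.0 kb in the pooled list, 90.2 kb in replicate 1, 115.2 kb in replicate 2 and 89.5 kb in replicate 3. In each of these lists it was the 2nd longest distance between neighbouring nuclear summits, against medians from 2.07 to 2.75 kb. What keeps that stretch empty was not tested, so the lack of entries at the 5' end and the counts of rpm-1 say nothing of ATTF-4 there.

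At dlk-1 (F33E2.2, WBGene00001008, reverse strand of chrI:12565800-12572801), which encodes the kinase at the top of the cascade, the pooled list held 4 peaks. The strongest, 843 bp into the gene in an intron, had a signal of 13.1, rank 3982 and a −log10 q-value of 0.508, and was matched in replicate 2 (4.23, rank 5059) and replicate 3 (8.78, rank 3127). The next, 1758 bp in, also in an intron, had 12.2 and rank 5161, and was matched in replicate 2 (6.59, rank 900) and replicate 3 (4.45, rank 20525). Both thus lacked a summit within 100 bp in replicate 1. A peak 909 bp upstream had 8.72 and was matched in replicate 3 (4.97), with a replicate 1 summit 104 bp away, and a peak in a coding exon 4286 bp in had 7.44 and no match. The strongest entry of the window fell at a different place in each replicate: 6381 bp into the gene in replicate 1 (8.50, rank 1376), 1808 bp in replicate 2 (6.59, rank 900) and 895 bp in replicate 3 (8.78, rank 3127). The strongest dlk-1 peak held 1 copy of CTGCGTCTC, 1 of TGAGTCA and 1 of TGACGTCA, the last in 2.04% of final-set and 1.08% of pooled windows.

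At mkk-4 (F42G10.2, WBGene00003368, forward strand of chrX:10027856-10030130), the kinase between DLK-1 and PMK-3, the strongest pooled peak lay 280 bp upstream, in the A and T rich stretch shown above. It had a signal of 11.5, rank 6535 and a −log10 q-value of 0.321. Replicate 2 had a summit at the same base (3.58, rank 7919), replicate 1 had one 104 bp away (4.26), just outside the 100 bp used for a match, and replicate 3 had none within 1000 bp. The position was therefore shared by 1 replicate, or by 2 if the match is widened to 200 bp. A second peak, 1400 bp upstream, had 9.55 and was matched in replicate 3 (4.10, 2 bp away), and the weakest, in the 3' UTR and 1090 bp upstream of the next gene, sek-6, had 7.02 and no match.

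At pmk-3 (F42G8.4, WBGene00004057, forward strand of chrIV:8139219-8143154), the p38-type kinase at the end of the cascade, the stronger of 2 pooled peaks lay 38 bp past the 5' end, in the 5' UTR. It had a signal of 10.9 and rank 7771, and was matched in replicate 3 alone (8.91, rank 2959, 42 bp away). The end of the gene before it, islo-1, is 165 bp from the summit, and the peak counts for both windows. The other, 1143 bp in, in a coding exon, had 7.79 and no match. The strongest entries of replicate 1 (6.43) and replicate 2 (4.23) lay elsewhere in the window.

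At cebp-2 (C48E7.11, WBGene00016754, forward strand of chrI:6253082-6253584), the partner of CEBP-1, the pooled list held no peak. The gene is 503 bp long, at the 5.92th percentile of length, and its window of 3.503 kb is the shortest of the 6. The replicate lists held 5 entries there with signals of 4.17 and 4.14 in replicate 1, 2.38 and 2.98 in replicate 2 and 3.62 in replicate 3. No 2 of them from different replicates lay within 100 bp, and 4 of the 5 lay in the neighbouring genes cof-2 and lpd-2. The list medians were 3.87 in replicate 1, 3.09 in replicate 2 and 5.19 in replicate 3, so the entries lay near or below the median. The pooled peak nearest to the window lay 3059 bp upstream of the gene, 1059 bp outside the window, with a signal of 16.5 and rank 1596. On the downstream side the next pooled peak lay 1604 bp outside the window, with a signal of 8.52 and rank 15864.

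The upstream edge of the window decided some of these entries. At dlk-1 the pooled peak nearest to that edge inside the window had a signal of 8.72, and the next one outside, 2612 bp upstream of the gene, had 18.8, more than any of the 4 inside. At mkk-4 the values were 9.55 inside and 10.5 outside, 2991 bp upstream. At cebp-1 they were 46.1 inside and 9.93 outside, 3115 bp upstream, and at pmk-3 10.9 inside and 8.44 outside, 2817 bp upstream. At the downstream edge, the peak inside was weaker than the next one outside at each of the 5 genes with a pooled peak, with outside peaks 569 bp from the edge at pmk-3 (7.79 inside, 8.55 outside) and farther at the others.

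Read against the whole genome, peak counts set these genes apart little. A pooled peak lay in the window of 5 of the 6 genes and of 72.7% of all protein-coding genes. With the replicate lists, entries lay at 6 of 6 genes in replicate 1 (79.4% of all genes), 5 of 6 in replicate 2 (68.0%) and 6 of 6 in replicate 3 (78.1%). A pooled peak from 1000 bp upstream to 200 bp past the 5' end was present at 4 of 6 genes, cebp-1, dlk-1, mkk-4 and pmk-3, and at 32.3% of all genes. A peak with a signal above the median of the pooled list was present at 4 of 6 and at 49.6% of all genes. Of the 5 genes with a pooled peak, none had a strongest one without a match in any replicate. Over the genome this was the case for 3003 of the 14535 genes with a pooled peak, or 15.0% of all genes. The 6 windows together held 0.316 pooled peaks per kb over 47.4 kb, against 0.248 per kb over the nuclear genome. The density ran highest at cebp-1 (0.719 per kb), then mkk-4 (0.569), dlk-1 (0.400), pmk-3 (0.288) and rpm-1 (0.171), where part of the rpm-1 window lies in the empty stretch. Each replicate list had 16 entries in these windows, spread differently: replicate 1 had 5 at rpm-1, replicate 2 had 6 and replicate 3 had 8 at dlk-1.

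Of the 15 pooled peaks, 1 had a summit in all 3 replicate lists, 4 in 2, 7 in 1 and 3 in none. Over the whole pooled list the shares were 2.60% in all 3, 19.6% in 2, 52.2% in 1 and 25.5% in none. The peaks of the 6 genes other than the one upstream of cebp-1 were thus spread over the replicates much as the pooled list is, which holds background entries beside peaks.

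**Figure D3:**
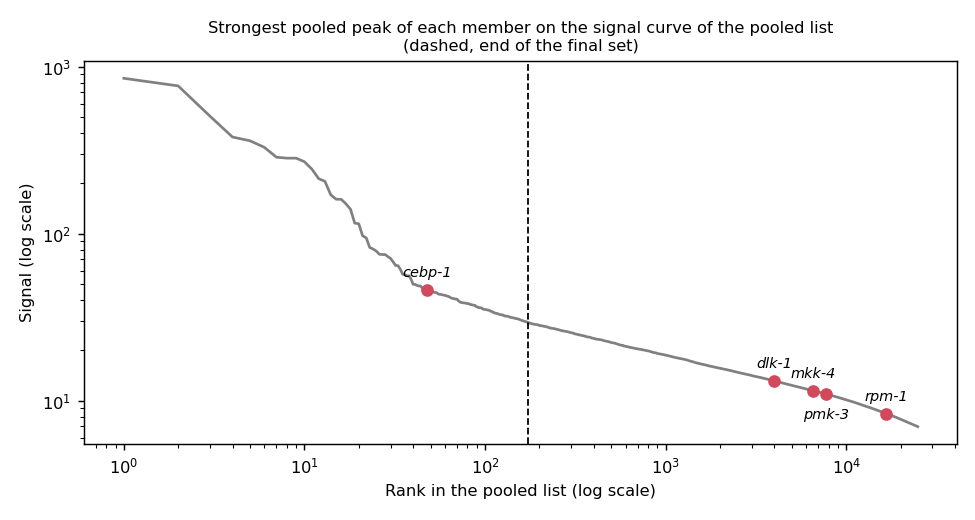
Signal (y axis, log scale) by rank (x axis, log scale) over the 24897 pooled peaks, with the strongest pooled peak of each gene that has one in red and the end of the final set dashed. The cebp-1 peak, at rank 48, lies left of that end, and dlk-1, mkk-4, pmk-3 and rpm-1 lie at ranks 3982, 6535, 7771 and 16648 on the flat part of the curve.

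The order of the genes by strongest signal was the same at the top in every list and unstable below. In the pooled list it was cebp-1, dlk-1, mkk-4, pmk-3 and rpm-1, with cebp-1 3.51 times dlk-1. In replicate 1 cebp-1 (13.8) was followed by dlk-1 (8.50), rpm-1 (6.71), pmk-3 (6.43), mkk-4 (4.26) and cebp-2 (4.17). In replicate 2 cebp-1 (13.6) was followed by dlk-1 (6.59), mkk-4 (4.59), pmk-3 (4.23) and cebp-2 (2.98). In replicate 3 cebp-1 (22.9) was followed by pmk-3 (8.91), dlk-1 (8.78), rpm-1 (6.66), mkk-4 (4.10) and cebp-2 (3.62). The ratio of the first to the second was smallest in replicate 1, at 1.62, and was 2.07 in replicate 2 and 2.57 in replicate 3.

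Divided by the median of the list, the strongest entry averaged 4.13 ± 0.50 at cebp-1, 2.01 ± 0.28 at dlk-1, 1.58 ± 0.18 at pmk-3, 1.12 ± 0.35 at mkk-4 and 0.91 ± 0.20 at cebp-2 (SD, n = 3 replicates), and 1.51 ± 0.32 at rpm-1 (SD, n = 2). The rpm-1 mean leaves out replicate 2, which had no entry. Except at cebp-1, the entries averaged lay at different positions in different replicates. Their SD is thus the spread of the strongest entry in the window and not of any 1 site. The lowest cebp-1 value, 3.55, was above the highest of any other of the 6 genes, 2.19 at dlk-1. Among the rest the ranges overlapped between neighbours in the order. Within each replicate, dlk-1 lay above mkk-4 and mkk-4 lay above cebp-2. The latter gap was narrow in replicate 1, at 1.10 for mkk-4 against 1.08 for cebp-2. The 6 windows differ in length, from 3.503 kb at cebp-2 to 17.557 kb at rpm-1, and the part of length in this order was not tested. Over all genes with an entry, 49 of 14535 stood above cebp-1 in the pooled list, 176 of 15862 in replicate 1, 45 of 13590 in replicate 2 and 83 of 15599 in replicate 3. For dlk-1 the numbers were 4194 in the pooled list, 1721 in replicate 1, 1122 in replicate 2 and 3391 in replicate 3.

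**Figure D4:**
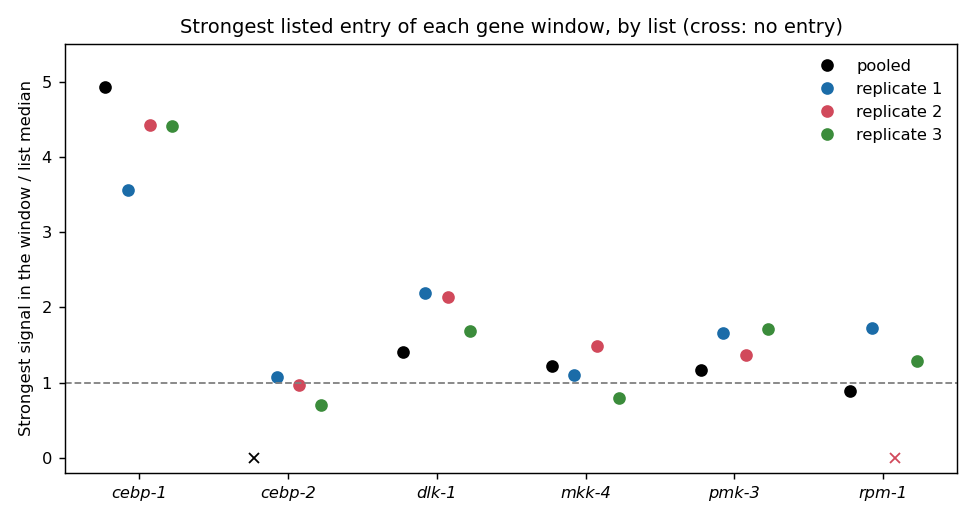
Strongest entry of each gene window divided by the median signal of its list (y axis), for the 6 genes (x axis) in the pooled list and the 3 replicate lists; a cross marks a list with no entry and the dashed line is the list median. The 4 points of cebp-1, from 3.55 to 4.93, lie above all points of the other genes, which reach 2.19.

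The final-set peaks whose signals over the 4 lists were most like those of the cebp-1 peak, by Euclidean distance of log10 signal among the 77 other nuclear final-set peaks found in every replicate, were spread over 4 chromosomes. The closest, 374 bp upstream of rpl-15, a gene for a protein of the large ribosomal subunit, had a pooled signal of 53.2 and a distance of 0.110. Next came a peak between genes on X with no 5' end near it (47.1, distance 0.141) and the peak downstream of xbp-1 (45.6, distance 0.166). A peak in an intron of cng-3, 246 bp upstream of wrt-3 (40.8, distance 0.176), and one 269 bp upstream of wwp-1 (56.8, distance 0.202) followed. Each of the last 2 summits also lay in an exon of a non-coding RNA gene, F38E11.21 and Y65B4BR.10. The likeness is one of signal over 4 lists that share alignments, and nothing more.

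Genes around the pathway were read from lists of named genes, the 6 genes left out. Among 10 annotated genes of the RPM-1 ubiquitin ligase complex and its partners, 9 had a pooled peak, with a median strongest signal of 10.7, and 1 had a final-set peak. That gene was cdk-5, a cyclin-dependent kinase of neurons, with a peak in its 3' UTR of 34.2 (rank 108) that was strong in replicate 1 (24.7, rank 28) and replicate 3 (24.6, rank 62) and had no summit within 100 bp in replicate 2. After it came unc-51 (17.9), the kinase that starts autophagy, and glo-4 (13.5), a gut granule and RPM-1 partner gene. Among 18 genes of MAP kinase cascades, 17 had a pooled peak, with a median of 11.9, and none had a final-set peak. The highest were vhp-1 (28.1, rank 203), a phosphatase that acts on MAP kinases, tir-1 (21.0), whose window takes in a summit in the 3' UTR of rpl-3, and nsy-1 (18.02), a MAP kinase kinase kinase. The vhp-1 and nsy-1 peaks had no summit within 100 bp in replicate 2, and the tir-1 peak had one in replicate 1 alone.

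Among 11 axon and microtubule genes all had a pooled peak, with a median of 12.4, and none had one in the final set. The highest was mec-17 (27.1, rank 233), a tubulin acetyltransferase of touch neurons, whose peak had a summit in all 3 replicates, though at rank 21731 in replicate 2. It was followed by unc-70 (17.2), the β-spectrin gene, and unc-33 (15.7), where the summit lies at a tRNA gene. The unc-70 peak had no summit within 100 bp in any replicate, and it lies in an intron that also holds a non-coding RNA exon. Among 27 annotated bZIP genes, the family of cebp-1, 23 had a pooled peak, with a median of 15.0, and 2 had one in the final set. These were xbp-1 (45.6, rank 50), the transcription factor of the unfolded protein response in the endoplasmic reticulum, and zip-2 (29.4, rank 172), which acts in pathogen defence, with zip-4 (22.7, rank 463) next. The zip-2 signal was close to the lowest in the final set. Its peak had no summit within 100 bp in replicate 1 and ranked 5080 in replicate 2 and 1649 in replicate 3. The xbp-1 peak had a summit in all 3 replicates (12.7 in replicate 1, 16.1 in replicate 2 and 16.4 in replicate 3) and lay 1762 bp from the 5' end, past the gene.

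Over all protein-coding genes 14535 of 19985 had a pooled peak, with a median strongest signal of 10.8. The listed genes are longer than the average gene: their median lengths were 3882.5 bp (ubiquitin ligase), 5893 bp (MAP kinases), 7661 bp (axon and microtubules) and 3865 bp (bZIP), against 2026 bp over all genes. Longer windows can take in more entries, and the part of length in the medians was not tested.

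**Figure D5:**
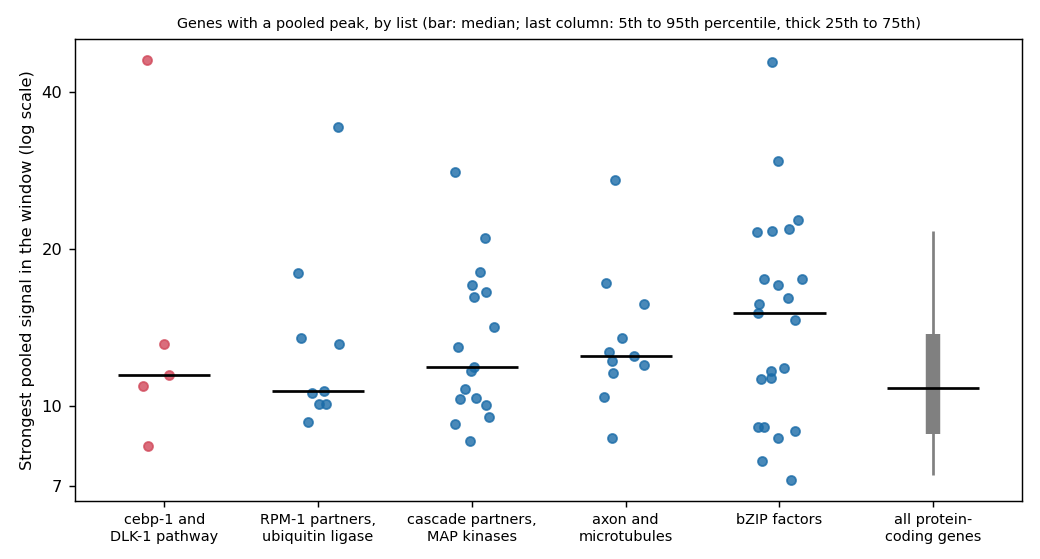
Strongest pooled signal (y axis, log scale) of each gene that has a pooled peak, for the 6 genes, the 4 lists of related genes and all protein-coding genes (thick bar, 25th to 75th percentile; thin line, 5th to 95th); black bars are medians. In the group of 6 genes cebp-1 at 46.1 stands alone, and in the bZIP list xbp-1 at 45.6 reaches the same level.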

How the data were processed

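The sources were peak lists of ATTF-4 ChIP-seq in whole L4 larvae on ce11. Notes deposited with the files say that 1 alignment per biological replicate, set against a control, gave a replicate list, that all 3 together gave the pooled list, and that these lists gave the final set by the irreproducible discovery rate (IDR). The authors' lists give a signal per peak and a −log10 q-value, both as deposited. All but the final set hold background entries. Which aligner and peak caller were used is not given in the sources used here. Depth is unknown.

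Genes came from Ensembl release 115 and sequence from the RefSeq genome, whose build is that of the lists. Peaks were assigned by summit, with Python 3.11.15, numpy 2.4.6 and pandas 2.3.3, and figures were drawn with matplotlib 3.10.9. Summits matched within 100 bp, and motifs were sought within 100 bp of the summit on both strands. The gene assignment and matching were tested on simulated peaks. The genes and lists were chosen with earlier results of these data known. Named genes were the 6, the neighbours of their final-set peak, the 3 strongest genes of each list with any holding a final-set peak, and the 5 peaks most like that at cebp-1; other neighbours were named after their values were seen. No test was run. Alternatives changed the window, the peaks used, the match and the replicates. Lists on ce10 were not used here.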

Additional observations from a re-analysis of the deposited data

How the results depend on the processing

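The 6 results were recomputed under 16 settings, each where it applied, which gave 40 values. Of these, 29 lay within a fixed ratio of the main value and were counted as kept, and 11 as moved. A kept value need not equal the main one. The 15 pooled peaks became 22 with 5000 bp upstream, and the 3 replicate summits at cebp-1 became 2 within 50 bp. With a replicate left out no more than 2 such summits were possible, so that label was no check. The 15 pooled peaks at the 6 genes became 5 in the promoter window, 9 in the gene bodies, 7 among pooled peaks with a signal above the median and 1, upstream of cebp-1, among peaks at the highest −log10 q-value. At that q-value 1 gene in place of 5 had a pooled peak, and with gene bodies alone 0 had a final-set peak. The number of genes whose strongest peak had a summit in every replicate was 1, was 0 with summits within 50 bp, and ranged from 1 to 2 with a replicate left out (2, cebp-1 and dlk-1, without replicate 1). The cebp-1 signal of 46.1 was 13.8 in replicate 1, 13.6 in replicate 2 and 22.9 in replicate 3 alone, since each list has its own scale. No paired analysis was possible because there is 1 group and no test. Depth is unknown, so weak or missing entries such as those at cebp-2 do not show that ATTF-4 is absent there.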
